A study of Mus musculus with 8 samples.

Results

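10 genes of the interleukin-6 family that signals through the shared receptor gp130 were followed in whole aortas of atherosclerotic mice, and all 10 were found by symbol among the 24411 rows of the deposited count table. They are the ligand genes Il6, Osm, Lif and Il11, the gene of gp130 itself (Il6st), the genes of the partner receptors Il6ra, Osmr, Lifr and Il11ra1, and Socs3, which encodes the feedback inhibitor of the receptor. All 10 passed the filter on low counts.

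Each cytokine of this family signals through a receptor complex that holds gp130. IL-6 and IL-11 each bind a receptor chain of their own and use a gp130 pair. LIF uses gp130 together with the LIF receptor, and oncostatin M uses it together with the oncostatin M receptor. Janus kinases bound to gp130 then phosphorylate STAT3, which switches on target genes, among them Socs3, whose protein binds gp130 and shuts the signal off. In the artery wall IL-6 is made by smooth muscle cells, fibroblasts, endothelium and macrophages, and oncostatin M is known as a product of myeloid cells and T cells. The IL-6 gene is a classical target of the transcription factor NF-κB.

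The mice carried a transgene for a permanently active IKK2, the kinase that turns on NF-κB, with EGFP, behind a removable stop cassette (caIKK2+/+), and they lacked apolipoprotein E (ApoE-/-), which leads to plaques on a fatty diet. The 5 caIKK2EC mice also had the BMX-CreERT2 transgene, in which the arterial endothelial Bmx gene's control elements drive a recombinase that tamoxifen activates, so the transgene is switched on in arterial endothelium while the RNA comes from all cells of the vessel. The 3 Control mice were littermates with caIKK2+/+ and ApoE-/- and no Cre. Both groups received tamoxifen (1 mg per 20 g of body weight on 5 days) and a Western-type diet for 12 weeks. They were 18 weeks old (caIKK2EC 1 and 3, Control 1 and 2) or 19 weeks old (caIKK2EC 2, 4 and 5, Control 3), and Control 3 was the only male. The sources used here do not say whether IKK2 was activated early or late in disease in these 8 mice. Each library was made from poly(A) RNA of 1 mouse and held 23461655 to 30808502 counts. The column names of the count table place caIKK2EC 1 and the 3 Controls in lane 7 of the sequencer and caIKK2EC 2 to 5 in lane 8, so group and lane can be told apart only through caIKK2EC 1. Ikbkb, the gene of IKK2, was at 91.6 to 103 CPM (the usual depth-scaled counts, here with TMM scaling) in caIKK2EC libraries and at 65.4 to 87.0 CPM in Control libraries, without overlap. The Ikbkb difference did not pass (log2 0.30, SE 0.12, edgeR adjusted p = 0.237, DESeq2 adjusted p = 0.146). Of all tested genes, 7.01% were higher without overlap. Smooth muscle markers were at 9630 to 20291 summed CPM in caIKK2EC and 17699 to 35638 summed CPM in Control libraries, the highest being Control 3. All 5 smooth muscle markers and all 6 endothelial markers were detected, which is what a whole aorta holds. In bulk tissue, more cells of a type and more RNA per cell cannot be told apart.

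The start sites of the members were searched for 3 short motifs, to show the sequence that the transcription factors of this pathway are known to bind. RefSeq promoters of 300 bases (250 before and 50 after the start site, build GRCm38.p6) were searched on both strands for the κB-type motif (GGG, any pair of bases, then TTTCC), the STAT-type motif TTCNNNGAA and the AP-1 motif TGANTCA. These motifs were found in 1.63%, 8.30% and 7.81% of 32851 promoters of that length. Il6 held the κB-type match 44 bases before its start site (position -44) and an AP-1 match at position -249. Lif and Osmr held 1 AP-1 match each, at positions -228 and 4, and Socs3 held 1 STAT-type match at position -154. The 4 promoters follow, since they hold a match and belong to members with an unadjusted p under 0.05 in the comparison below, with the matches in capitals. The RefSeq start sites of Osmr and Socs3 lie inside the GENCODE spans given further on. The windows are chr5:30012864-30013163 (plus strand), chr11:4257318-4257617 (plus strand), chr15:6874264-6874563 (minus strand) and chr11:117969317-117969616 (minus strand). Il6ra, Il6st, Lifr and Il11ra1 had no match to these 3 patterns in their windows. Il11 had 1 AP-1 match in 1 of its 2 windows, and Osm was not in the table. The κB-type pattern is 1 narrow form of the motif. Windows without a match may hold κB-type sequences with other letters, which were not searched. A match describes letters and does not show binding.
Il6: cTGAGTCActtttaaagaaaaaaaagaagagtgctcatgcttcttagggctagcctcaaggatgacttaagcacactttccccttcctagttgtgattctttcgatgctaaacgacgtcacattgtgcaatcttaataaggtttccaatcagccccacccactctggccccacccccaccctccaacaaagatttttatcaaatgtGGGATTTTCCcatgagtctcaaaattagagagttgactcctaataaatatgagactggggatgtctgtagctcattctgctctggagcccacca
Lif: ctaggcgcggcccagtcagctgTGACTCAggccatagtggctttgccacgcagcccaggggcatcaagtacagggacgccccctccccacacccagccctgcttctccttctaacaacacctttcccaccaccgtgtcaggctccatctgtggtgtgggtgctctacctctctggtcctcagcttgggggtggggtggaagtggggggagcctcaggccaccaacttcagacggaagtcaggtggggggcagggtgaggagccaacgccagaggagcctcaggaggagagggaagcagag
Osmr: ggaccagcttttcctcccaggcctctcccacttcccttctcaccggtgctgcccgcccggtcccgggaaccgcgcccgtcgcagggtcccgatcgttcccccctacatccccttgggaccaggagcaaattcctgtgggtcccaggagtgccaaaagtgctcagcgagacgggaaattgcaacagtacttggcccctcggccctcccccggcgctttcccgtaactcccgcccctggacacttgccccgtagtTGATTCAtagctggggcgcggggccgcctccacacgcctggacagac
Socs3: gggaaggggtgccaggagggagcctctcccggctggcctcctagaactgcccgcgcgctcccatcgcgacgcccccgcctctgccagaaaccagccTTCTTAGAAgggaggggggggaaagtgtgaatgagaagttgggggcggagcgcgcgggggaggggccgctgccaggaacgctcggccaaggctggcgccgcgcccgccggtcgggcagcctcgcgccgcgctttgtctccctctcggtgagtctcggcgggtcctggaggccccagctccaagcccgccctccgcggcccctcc

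Mean levels of 3 of the 4 ligand genes (Il6, Lif and Osm), of the receptor genes Il6ra and Osmr and of the feedback gene Socs3 were higher in caIKK2EC than in Control aortas, by 1.32-fold (Osmr) to 2.47-fold (Lif). The shared receptor gene Il6st, Lifr and Il11 had log2 fold changes of -0.03 to 0.09, and Il11ra1 had -0.39. In edgeR's quasi-likelihood test, 6 of the 10 genes had an unadjusted p under 0.05, all 6 higher (Lif, Il6, Osm, Socs3, Il6ra and Osmr), where 9.66% of the 14679 tested genes were higher and 7.47% lower by the same rule. After Benjamini-Hochberg adjustment over all genes edgeR called 0 of the 10, and 0% of all genes. DESeq2, the tool that the submitters' processing notes name, called 5 of the 10 higher (Il6ra, Socs3, Lif, Osmr and Osm) and 0 lower, against 4.55% of all genes higher and 1.51% lower. The same 5 pass in the authors' deposited table. Its log2 fold changes and adjusted p-values for the 10 genes equal those of this DESeq2 run, so it is no independent source. In 3 of the 10 (Il6ra, Osmr and Socs3) all caIKK2EC libraries lay above all Controls, against 7.01% of tested genes higher without overlap and 3.22% lower. The median log2 fold change was 0.54 over the 10 genes and -0.02 over all tested genes. The summed level of 7 macrophage markers was also higher, at 1387 to 1747 CPM in caIKK2EC and 810 to 1027 CPM in Control libraries, and its part in these differences was not tested.

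**Figure D1:**
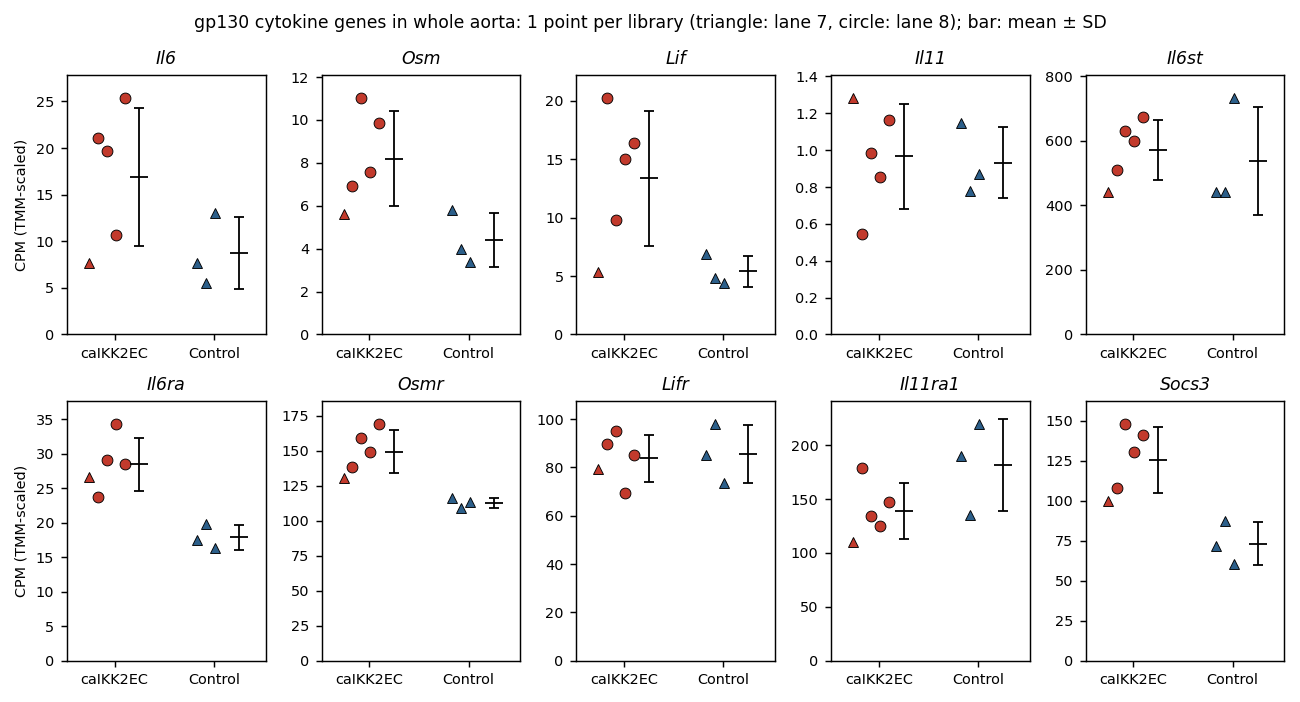
TMM-scaled CPM of each of the 10 genes in every library, caIKK2EC left and Control right, with the mean and SD beside the points; triangles are lane 7 and circles lane 8. Il6ra, Osmr and Socs3 separate the groups, and caIKK2EC 1 (the red triangle) lies among the Controls for Il6, Osm and Lif.

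Il6 (chromosome 5, 30013114 to 30019981, plus strand, GRCm38), the name-giving cytokine, was at 7.69, 21.1, 19.7, 10.6 and 25.4 CPM in caIKK2EC 1 to 5, against 7.70, 5.47 and 12.98 CPM in Control 1 to 3. The groups overlapped: caIKK2EC 1 and 4 lay below Control 3, the male, and the 3 other caIKK2EC libraries lay above every Control. The fold change was 1.94 (log2 0.96, SE 0.41, 95% interval 0.03 to 1.88) and did not pass (edgeR adjusted p = 0.279, DESeq2 adjusted p = 0.145). Without Control 3 the log2 value was 1.36 and DESeq2 called it (adjusted p = 0.0449), as it did without caIKK2EC 1 (log2 1.14, adjusted p = 0.0251). It did not in the other 6 fits that left out 1 library, with log2 values down to 0.71 (without Control 2, DESeq2 adjusted p = 0.395), nor with lane as a covariate (log2 -0.18, DESeq2 adjusted p = 0.938).

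Lif (chromosome 11, 4257557 to 4272514, plus strand), which encodes leukemia inhibitory factor, was at 5.36, 20.2, 9.82, 14.98 and 16.4 CPM in caIKK2EC 1 to 5, against 6.93, 4.84 and 4.404 CPM in Control 1 to 3. The caIKK2EC libraries 2 to 5 were above every Control and caIKK2EC 1 was below Control 1. Its log2 fold change of 1.31 (SE 0.39, 95% interval 0.43 to 2.18), a 2.47-fold difference, was the highest of the 10, and it passed in DESeq2 (adjusted p = 0.0174) but not in edgeR (adjusted p = 0.158). The DESeq2 call was lost without caIKK2EC 4, caIKK2EC 5, Control 2 or Control 3, where the adjusted p reached at most 0.118, and with lane as a covariate (DESeq2 adjusted p = 0.999).

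Osm (chromosome 11, 4236420 to 4241026, plus strand), the oncostatin M gene, lies 16.5 kb from Lif with no other protein-coding gene between them. It was at 5.59, 6.91, 11.02, 7.58 and 9.86 CPM in caIKK2EC 1 to 5, against 5.82, 3.99 and 3.39 CPM in Control 1 to 3, so that only caIKK2EC 1 fell within the Control range. The log2 fold change was 0.89 (SE 0.28, 95% interval 0.27 to 1.52), with a DESeq2 adjusted p of 0.0361 and an edgeR adjusted p of 0.167. DESeq2 no longer called it without caIKK2EC 3, 4 or 5 or without Control 2 or 3 (adjusted p up to 0.215), nor with lane as a covariate (log2 0.35, adjusted p = 0.788). Although neighbours, Osm and Lif did not keep a fixed ratio: Osm counts were 0.342 to 1.12 times those of Lif in caIKK2EC libraries and 0.771 to 0.840 times in Controls.

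Il11 (chromosome 7, 4772373 to 4782859, minus strand), whose product is a cytokine of fibroblasts and other stromal cells, was near the limit of detection, with 13 to 36 counts in caIKK2EC and 19 to 31 counts in Control libraries. Its levels were 0.548 to 1.28 CPM in caIKK2EC and 0.777 to 1.15 CPM in Control. The log2 difference was 0.05 (SE 0.39, edgeR adjusted p = 0.964), and its 95% interval of -0.81 to 0.91 does not set a narrow limit on a change in either direction.

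The shared receptor gene Il6st (chromosome 13, 112464070 to 112510086, plus strand) was at 442 to 672 CPM in caIKK2EC and at 440 to 732 CPM in Control libraries. Control 3 was the highest of all 8 libraries and Control 1 and 2 lay just below caIKK2EC 1. The log2 difference was 0.09 (SE 0.21, 95% interval -0.38 to 0.56, edgeR adjusted p = 0.878), and 0.37 without Control 3. Lifr (chromosome 15, 7090614 to 7197489, plus strand), the gene of the LIF receptor, was at 69.5 to 94.97 CPM in caIKK2EC and at 73.6 to 97.8 CPM in Control. Its log2 difference was -0.03 (SE 0.13, 95% interval -0.33 to 0.27, edgeR adjusted p = 0.935).

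Il6ra (chromosome 3, 89864059 to 89913196, minus strand), the gene of the IL-6 receptor chain, was at 26.7, 23.8, 29.1, 34.3 and 28.6 CPM in caIKK2EC 1 to 5, against 17.6, 19.8 and 16.3 CPM in Control 1 to 3. Every caIKK2EC library was above every Control, by an average of 1.59-fold (log2 0.67, SE 0.14, 95% interval 0.36 to 0.98). It rose in DESeq2 (adjusted p = 0.00215), in 8 of 8 repeats that each left out 1 library, and had an edgeR adjusted p of 0.107. With lane as a covariate DESeq2 did not call it (log2 0.58, adjusted p = 0.254). An annotated antisense gene overlaps Il6ra, and the sources used here do not say whether counting used the strand. Relative to Il6st, Il6ra counts were 0.0506 ± 0.00770 (SD, n = 5) in caIKK2EC and 0.0357 ± 0.0118 (SD, n = 3) in Control libraries, with overlap. The exact two-sided permutation p was 0.0714 (0.107 adjusted over the 3 ratios computed). This ratio was chosen after values had been seen, so its p is no independent test.

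Osmr (chromosome 15, 6813577 to 6874969, minus strand), the gene of the oncostatin M receptor, was at 130, 139, 159, 149 and 169 CPM in caIKK2EC 1 to 5, against 116, 109 and 113 CPM in Control 1 to 3. The groups did not overlap, and the Controls were close together. The difference was small, 1.32-fold (log2 0.40, SE 0.11, 95% interval 0.15 to 0.66, edgeR adjusted p = 0.145). DESeq2 called it with all libraries (adjusted p = 0.0205) but in only 2 of the 8 repeats that left out 1 library, those without caIKK2EC 1 or caIKK2EC 2; the highest adjusted p was 0.107. With lane as a covariate it had a log2 value of 0.22 (DESeq2 adjusted p = 0.646). Osmr and Lifr lie 215.6 kb apart, and each encodes a partner of gp130, Osmr for oncostatin M and Lifr for LIF. Their ratio, which does not depend on the scaling of the libraries, was 1.65, 1.54, 1.67, 2.14 and 1.98 in caIKK2EC 1 to 5, against 1.36, 1.11 and 1.54 in Control 1 to 3. All caIKK2EC values were higher, caIKK2EC 2 only just above Control 3 (exact permutation test, two-sided p = 0.0357, which is the minimum for 5 and 3 libraries; 0.107 adjusted over 3 ratios). The ratios were chosen after values had been seen.

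Il11ra1 (chromosome 4, 41699989 to 41769474, plus strand), the gene of the IL-11 receptor chain, had the lowest fold change of the 10, at 110 to 179 CPM in caIKK2EC and 136 to 219 CPM in Control libraries. The groups overlapped, and the log2 difference of -0.39 (SE 0.19, 95% interval -0.81 to 0.03) did not pass (edgeR adjusted p = 0.332). In edgeR the log2 value was -0.72 with lane as a covariate and -0.23 without Control 3. Within lane 7, caIKK2EC 1 less the mean of the Controls was -0.69. Its annotated span overlaps 6 other genes, 5 of them on the opposite strand, and its near-identical copy Il11ra2 had 0 counts in all 8 libraries, so how its reads were assigned is uncertain.

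Socs3 (chromosome 11, 117966079 to 117970047, minus strand), the feedback inhibitor that gp130 signalling induces, was at 100, 108, 148, 131 and 141 CPM in caIKK2EC 1 to 5, against 71.9, 87.6 and 60.5 CPM in Control 1 to 3. The lowest caIKK2EC library was above the highest Control. The fold change was 1.71 (log2 0.78, SE 0.17, 95% interval 0.40 to 1.16, edgeR adjusted p = 0.109). Socs3 rose in DESeq2 (adjusted p = 0.00229), again in 8 of 8 repeats that left out 1 library, but not with lane as a covariate (log2 0.46, DESeq2 adjusted p = 0.447). Other signals, NF-κB-inducing cytokines among them, are known to induce Socs3 too.

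The values were also taken within a lane. In lane 7, where caIKK2EC 1 is set against the 3 Controls, the log2 difference was -0.09 for Il6, 0.02 for Lif and 0.34 for Osm, against 0.57 for Il6ra, 0.46 for Socs3 and 0.21 for Osmr. These are differences of 1 library and have no test. With lane as a covariate the edgeR log2 fold changes were -0.18 for Il6 and -0.01 for Lif, 0.57 for Il6ra and 0.45 for Socs3, and 0 of the 10 genes passed (lowest edgeR adjusted p = 0.364, for Il6ra). DESeq2 with lane as a covariate called 0 of the 9 genes that had an adjusted p there (Il11 had none). The 4 caIKK2EC libraries of lane 8 averaged 19.2 ± 6.19 CPM for Il6 and 15.3 ± 4.30 CPM for Lif (SD, n = 4), above the caIKK2EC 1 values. Lane and animal cannot be told apart for caIKK2EC 1. That library also had the highest fat cell marker sum of the 8 libraries (2360 CPM) and the lowest smooth muscle sum (9630 CPM). The part of this tissue content in its values was not tested.

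**Figure D2:**
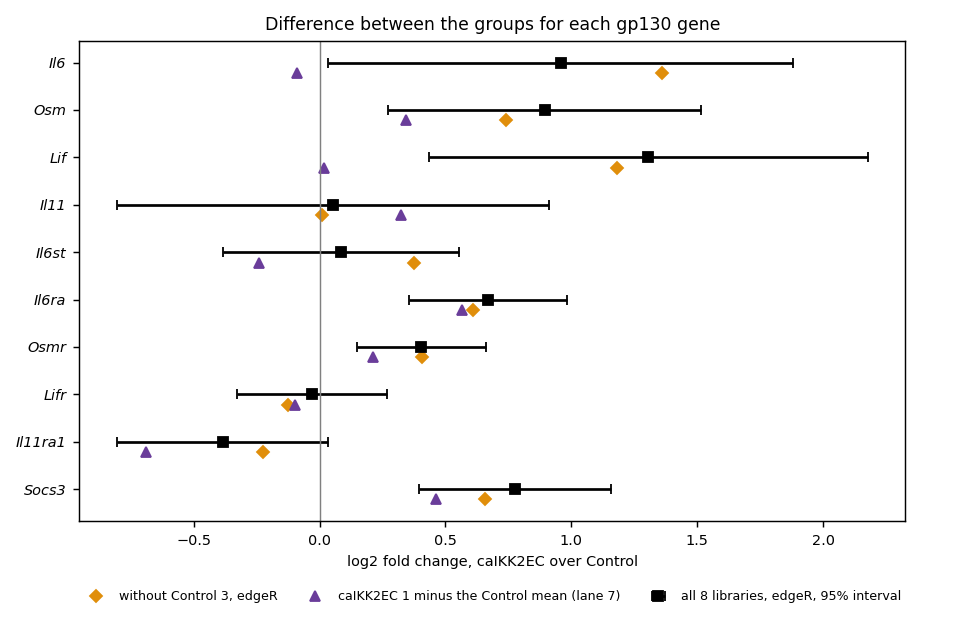
Log2 fold change of each gene, caIKK2EC over Control, from edgeR with its 95% interval (squares), without Control 3 (diamonds) and within lane 7, caIKK2EC 1 less the mean of the Controls (triangles). Il6 and Lif are near 0 within lane 7, while Il6ra stays at 0.57 there and 0.61 without Control 3.

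Per kilobase of exon, Il6st, Socs3, Il11ra1, Osmr and Lifr had higher mean levels than the 4 ligands in both groups. In caIKK2EC aortas Il6st was highest at 51.4 ± 8.44 CPM per kb, followed by Socs3 (43.5 ± 7.15), Il11ra1 (31.1 ± 5.81), Osmr (12.3 ± 1.26) and Lifr (7.77 ± 0.914), all as CPM per kb with SD and n = 5. The ligands and Il6ra were lower: Il6 at 6.96 ± 3.06, Osm at 3.61 ± 0.973, Il6ra at 3.30 ± 0.447, Lif at 3.07 ± 1.34 and Il11 at 0.464 ± 0.137 CPM per kb. In Control aortas the order was Il6st (48.5 ± 15.1 CPM per kb, SD, n = 3), Il11ra1 (40.6 ± 9.50), Socs3 (25.4 ± 4.71), Osmr (9.30 ± 0.301), Lifr (7.93 ± 1.12), Il6 (3.59 ± 1.59), Il6ra (2.07 ± 0.205), Osm (1.94 ± 0.555), Lif (1.24 ± 0.310) and Il11 (0.448 ± 0.0928). Socs3 thus stood above Il11ra1 in 4 of 5 caIKK2EC libraries and below it in 3 of 3 Controls, in Control 2 only just (30.29 against 30.31 CPM per kb). In caIKK2EC libraries neighbours in the order overlapped in their ranges except Il11ra1 with Osmr, Osmr with Lifr, and Lif with Il11. In Control libraries they overlapped except Il11ra1 with Socs3, Socs3 with Osmr, Lifr with Il6, and Lif with Il11. Exon lengths are the union of all GENCODE exons of a gene, which understates the level of genes with long rarely used exons.

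**Figure D3:**
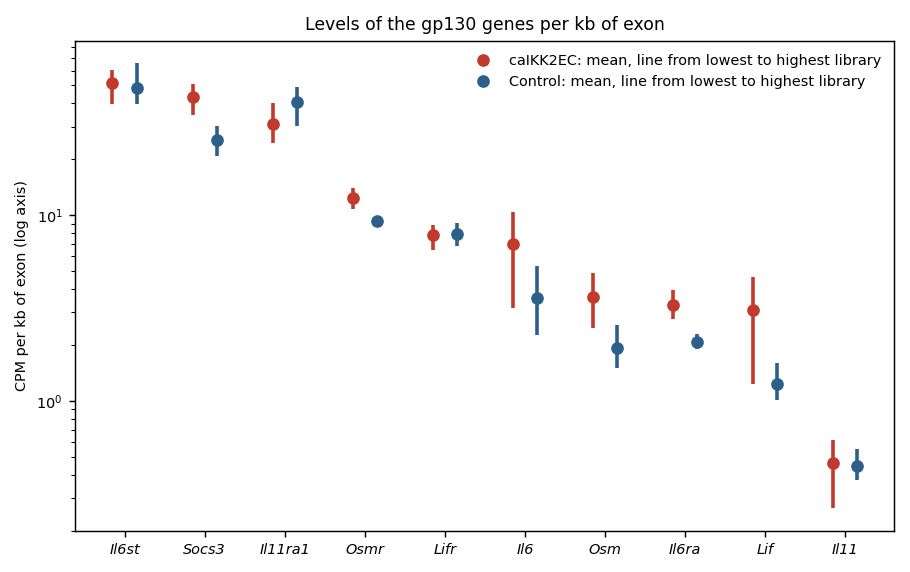
Mean CPM per kb of exon on a log axis for each gene in the order of the caIKK2EC means, with a line from the lowest to the highest library of each group. Il6st is highest at 51.4 (caIKK2EC) and 48.5 (Control), and Il11 lowest at 0.464 and 0.448.

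The other genes of the pathway were put in 4 lists with 48 genes, from general knowledge but with earlier results of these data known. The counts below therefore describe the lists and are no independent test. Of the 48 genes, 45 were tested. By an unadjusted edgeR p under 0.05, 17 were higher and 2 lower; 0 passed after adjustment in edgeR, and DESeq2 called 8 higher and 0 lower. Over all tested genes the shares were 9.66% higher and 7.47% lower by unadjusted p, and 4.55% higher and 1.51% lower in DESeq2. Their median log2 fold change was 0.23. Among 7 tested of 10 further ligand and receptor genes, 2 were higher and 1 lower by unadjusted p, 0 passed in DESeq2, and the median was -0.00. Il27ra, the IL-27 receptor gene, was at 15.8 ± 2.12 CPM in caIKK2EC and 10.3 ± 3.47 CPM in Control (SD, n = 5 and 3), and Ebi3, a subunit of IL-27, at 4.33 ± 0.666 and 2.71 ± 1.09 CPM. Ctf1, which encodes cardiotrophin-1, was at 4.76 ± 1.40 CPM in caIKK2EC and 7.38 ± 0.916 CPM in Control. The groups overlapped for Il27ra, Ebi3 and Ctf1, with edgeR adjusted p-values of 0.216, 0.276 and 0.244.

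The kinases and transcription factors that carry the signal differed little between the groups. Of 7 JAK and STAT genes 1 was higher by unadjusted p (9.66% of all genes) and 0 were called by DESeq2 (4.55% of all genes higher, 1.51% lower). Their median log2 fold change was 0.25. Stat3 was at 280 to 333 CPM in caIKK2EC and 240 to 261 CPM in Control libraries, without overlap, and did not pass (log2 0.25, SE 0.11, edgeR adjusted p = 0.299). Jak1, the main kinase of gp130, was at log2 0.28 (SE 0.12, edgeR adjusted p = 0.278), with overlap between the groups.

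Among 9 brakes and shedding proteases, 4 were higher and 1 lower by unadjusted p, and DESeq2 called 2 higher and 0 lower, against 9.66% and 7.47% of all genes by unadjusted p and 4.55% and 1.51% in DESeq2; the list's median log2 fold change was 0.06. Adam17, the protease that sheds the IL-6 receptor from the cell surface, was at 88.8 to 130 CPM in caIKK2EC and 64.0 to 86.4 CPM in Control libraries (log2 0.60, SE 0.15, DESeq2 adjusted p = 0.0135, edgeR adjusted p = 0.130). Ptpn6, which encodes the leukocyte phosphatase SHP-1, was at log2 0.94 (SE 0.27, DESeq2 adjusted p = 0.0178, edgeR adjusted p = 0.147). Ptpn2, a phosphatase of JAK and STAT proteins, had 0.36 (SE 0.13, edgeR adjusted p = 0.211). Ptpn11, the most abundant of the list, which encodes SHP-2, had -0.22 (SE 0.19, edgeR adjusted p = 0.604). The 1 gene lower by unadjusted p was Pias3, at -0.34 (SE 0.12, edgeR adjusted p = 0.214), without overlap (3.22% of tested genes). Cish was at -0.92 (SE 0.42, edgeR adjusted p = 0.306), with overlap. Of the 9 genes, 6 had a log2 fold change above 0 and 3 below.

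Of 22 genes known as STAT3 targets, 10 were higher and 0 lower by unadjusted p, and DESeq2 called 6 higher (Serpina3n, Bcl3, Lbp, Il4ra, Saa3 and Lcn2) and 0 lower. Of all genes, 9.66% were higher and 7.47% lower by unadjusted p, and DESeq2 called 4.55% higher and 1.51% lower. The median log2 fold change was 0.36. Of the 22 genes, 16 had a log2 fold change above 0 and 6 below, where 47.4% of all tested genes were above 0. The lowest was Fos, at -0.46 (SE 0.38, edgeR adjusted p = 0.577). Serpina3n, an acute-phase protease inhibitor, was at 455 to 851 CPM in caIKK2EC and 200 to 283 CPM in Control libraries (log2 1.28, SE 0.22, DESeq2 adjusted p = 5.49e-06, edgeR adjusted p = 0.107). Bcl3, an atypical IκB protein, was at log2 0.61 (SE 0.11) and Lbp, the lipopolysaccharide-binding protein gene, 0.76 (SE 0.16), each with an edgeR adjusted p of 0.107. Mcl1, the most abundant of the list and a survival factor, had 0.23 (SE 0.13, edgeR adjusted p = 0.384). Several of these genes, Bcl3, Saa3 and Lcn2 among them, are also known NF-κB targets.

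**Figure D4:**
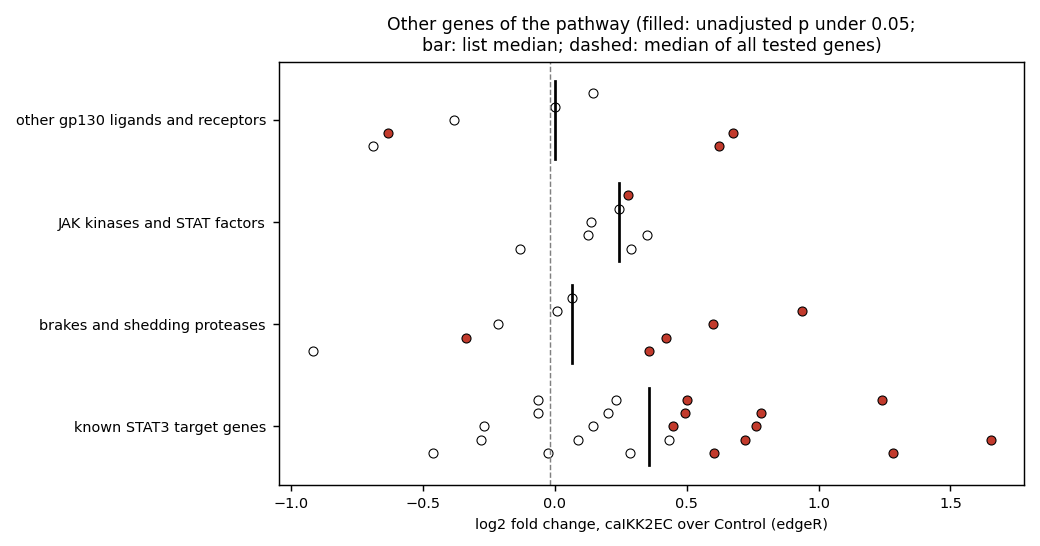
Log2 fold change, caIKK2EC over Control, of the tested genes of the 4 pathway lists; filled points have an unadjusted edgeR p under 0.05, bars are list medians and the dashed line is the median of all tested genes. The known STAT3 targets have the highest median, 0.36, and the further ligand and receptor genes lie around 0.

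The genes whose levels ran closest to the members were found by the root-mean-square difference of centred log2 CPM over the 8 libraries, among 13489 genes of at least 1 CPM. For Socs3 they were Stx11, Ikzf1 and Itgax, genes known from leukocytes, with differences of 0.0775, 0.0977 and 0.107 log2 units, where the median gene had 0.489. For Osm they were AA467197, Sele, the gene of the endothelial adhesion molecule E-selectin, and Exo1, at 0.142, 0.151 and 0.155 log2 units against a median of 0.554. For Osmr they were Cd82, Cdc42se2 and Scamp5, at 0.0539, 0.0660 and 0.0690 log2 units against 0.328. For Il6 the nearest were AW551984, Ikzf4 and Cx3cl1, at 0.376, 0.419 and 0.422 log2 units against 0.754, so no gene followed Il6 as closely as the nearest genes followed the other 3.

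Of the marker lists for other cell types, the summed levels of the macrophage and neutrophil lists did not overlap between the groups. All 7 macrophage markers were higher without overlap, against 7.01% of tested genes. DESeq2 called 7 of them higher, against 4.55% of all genes. The log2 difference of the summed macrophage level was 0.84 within lane 7. The summed level of the 5 neutrophil markers found was 38.5 to 53.3 CPM in caIKK2EC and 18.8 to 34.6 CPM in Control, most of it from Csf3r, at 35.2 ± 3.31 CPM in caIKK2EC and 18.5 ± 5.53 CPM in Control. S100a8, S100a9 and Cxcr2 overlapped, and Retnlg was lower without overlap, at 0.228 ± 0.0840 CPM in caIKK2EC and 0.605 ± 0.168 CPM in Control. Fibroblast markers were at 8105 to 10094 summed CPM in caIKK2EC and 5979 to 8201 summed CPM in Control, and endothelial markers at 2359 to 2994 and 1425 to 2842 summed CPM in the same order of groups. T cell markers were at 9.86 to 15.9 CPM in caIKK2EC and 5.64 to 20.3 CPM in Control, and mast cell markers at 19.3 to 35.2 CPM in caIKK2EC and 22.4 to 36.9 CPM in Control. Fat cell markers were at 182 to 2360 CPM in caIKK2EC, with caIKK2EC 1 the highest, and 945 to 1374 CPM in Control. Heart and skeletal muscle markers were at 50.1 to 991 CPM in caIKK2EC, with caIKK2EC 1 the highest, and 36.2 to 1948 CPM in Control, with Control 1 the highest. All 5 smooth muscle markers were lower in caIKK2EC by an unadjusted edgeR p under 0.05, against 7.47% of all genes. DESeq2 called 1 of them lower, Myh11, against 1.51% of all genes. No marker in these lists was at 0 in all libraries. The part of macrophages and the other cell types in the differences of Il6ra, Socs3 and the ligands was not tested.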

How the data were processed

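RNA of whole aortas was sequenced as single reads of 50 nt from a directional poly(A) library, per the labels' protocols. The authors deposited unnormalized counts by symbol. Reads were handled with STAR 2.7.0e, FastQC 0.11.5 and DESeq2 1.22.2 on build GRCm38 (mm10), per the submitters' processing notes. The sources used here name no counting program, annotation or strand setting. The authors' deposited comparison table holds log2 fold changes, a test score, p-values and normalized values (signal) for caIKK2EC against the group the authors call WT; its log2 fold changes and adjusted p-values were used.

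All 8 libraries entered 1 robust quasi-likelihood fit in edgeR 4.0.16 (R 4.3.3, limma 3.58.1), with TMM scaling and no term but group. The default filter left 14679 genes, over which p-values were adjusted by Benjamini-Hochberg (threshold 0.05). Standard errors are the log2 fold change over the square root of F. DESeq2 1.42.0 was run on genes with a total count of at least 10. Exact two-sided permutation tests enumerated all 56 assignments of libraries to groups, and single-gene differences of means used log2(CPM + 0.5). Exon lengths and coordinates are from GENCODE M21 on GRCm38, and promoters from RefSeq. Of the rows, 27 carried a date in place of a name and stayed in the fit. Each library is 1 mouse, and every pair of libraries differed beyond counting noise (lowest chi-square per degree of freedom 15.2). Alternatives were other scalings, no filter, DESeq2, lane, age, sex or replicate number as a term, and leaving out each library; the DESeq2 fits with a library left out or with lane were chosen after seeing the data. The procedures were tested on simulated data. The members and the lists were chosen with earlier results of these data known. All 10 members are named, with, of each pathway list, the 3 genes with the smallest p and the most abundant gene, except that some of these are not reported here; other names were added after values were seen.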

Additional observations from a re-analysis of the deposited data

How the results depend on the processing

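With DESeq2 in place of edgeR, 5 of the 10 genes, 8 other pathway genes and 869 of all genes were called, and with age as a covariate 2 (Il6ra and Socs3), 7 and 661. In edgeR with 1 library left out, 0 to 2 of the 10 were called, 0 to 3 other pathway genes and 0 to 359 of all genes, every value above 0 being that without caIKK2EC 2. DESeq2 with 1 library left out called 2 to 6 of the 10 (6, 5, 3, 2 and 2 without caIKK2EC 1 to 5, and 4, 2 and 3 without Control 1 to 3). It called 5 to 13 other pathway genes (9, 13, 7, 7 and 5 without caIKK2EC 1 to 5, and 7, 8 and 7 without Control 1 to 3). Of all genes it called 1026, 1782, 418, 385 and 392 without caIKK2EC 1 to 5, and 1133, 816 and 389 without Control 1 to 3; with lane as a covariate it called 0 of 9 members with an adjusted p, 3 pathway genes and 255 of all genes. By unadjusted p, 5 to 6 of the 10 passed in edgeR with 1 library left out. All of these were higher except Il11ra1, which was lower without caIKK2EC 2 and without Control 2. With lane as a covariate 2 passed in edgeR (1 higher, Il6ra, and 1 lower, Il11ra1) and 2 in DESeq2 (1 higher, 1 lower). Of all genes, 7.67% to 11.5% were higher and 3.72% to 10.1% lower in edgeR with 1 library left out, and 5.33% higher and 6.81% lower with lane, so the lane counts are near that background. Between 3 and 5 of the 10 did not overlap with 1 library left out. There were 5, all higher, without caIKK2EC 1 (8.20% of all genes higher, 7.05% lower) and without Control 1 (12.1% higher, 8.18% lower). Log2 fold changes kept their direction in all 27 alternatives for Osm, Il6ra, Osmr, Il11ra1 and Socs3. Il6 turned to -0.18 with lane as a covariate in edgeR and DESeq2 and to -0.0883 within lane 7, and Lif to -0.00999 and -0.00303 with lane. Il6st turned to -0.28 with lane in both tools and -0.24 within lane 7. Values close to 0 also changed sign when a library was left out. In edgeR they ran over -0.0568 to 0.25 for Il11, -0.0230 to 0.373 for Il6st and -0.13 to 0.0970 for Lifr. In DESeq2, Il11 was at -0.0662, -0.0223 and -0.0610 without caIKK2EC 1, caIKK2EC 5 and Control 2, Il6st at -0.0454 and -0.0395 without Control 1 and 2, and Lifr at 0.0297 and 0.0805 without caIKK2EC 4 and Control 2. With age, Lifr was at 0.0215. The causes were not tested.

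Replicate numbers come from the sample titles, which do not say whether equal numbers are pairs, and the main fit did not treat them as pairs. Deviations of same-numbered libraries had correlations of 0.382, 0.0821 and 0.112, each Control correlating best with its own number. With a replicate block, 0 genes were called in the whole table, 0 of the 10 by adjusted p and 2 by unadjusted p (both higher; 5.24% of all genes higher), and Il11, Il6st and Lifr were at -0.0433, -0.000846 and 0.0473. With 13 to 36 counts a library, depth limits what can be said of Il11.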
